A study of Homo sapiens with 8 samples.

Results

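The 10 genes described here encode heat shock proteins of the cytosol and of mitochondria, and were taken by gene symbol from the 58302 genes of the count table. The 7 cytosolic members were HSPA8, HSPA1A, HSPH1, DNAJB1, HSP90AA1, HSP90AB1 and HSPB1, and the 3 mitochondrial members were HSPD1, HSPE1 and HSPA9. All 10 had enough counts to be tested, among 5368 genes tested. The libraries came from A549, an established human lung adenocarcinoma line that grows as epithelial cells, transfected with a small interfering RNA against APEX1, the gene of the DNA repair enzyme APE1 (siAPEX1, 4 libraries), or with a scramble control (siCTRL, 4 libraries). Both groups were therefore transfected, untransfected cells were not part of the comparison, and the replicates are called biological in the study's text, though neither it nor the labels say whether each was a separate culture; if not, the p-values measure only the spread between these libraries, which may be technical. The libraries were made from total RNA with a small RNA kit adapted to keep primary miRNA transcripts as well, and reads were counted per gene.

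Heat shock proteins are chaperones, which bind unfolded stretches of other proteins and help them to fold or keep them from aggregating. HSP70 proteins take up clients with the help of J-domain partners and release them with nucleotide exchange factors, HSP90 proteins finish the maturation of kinases and steroid receptors, and small heat shock proteins hold unfolded clients. In mitochondria, an HSP70 of the matrix pulls in and folds imported precursors, and the barrel-shaped HSP60 with its HSP10 lid encloses them. Under proteotoxic stress the transcription factor HSF1 binds repeated GAA units of DNA in alternating orientation and raises the cytosolic genes in particular.

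The libraries held between 1348386 and 1949886 counted reads, and every siAPEX1 library was smaller than every siCTRL library. The count of APEX1 was higher, not lower, in the libraries labelled siAPEX1, at 19470 to 27916 reads against 47 to 64 in siCTRL. The log2 fold change was 9.29 ± 0.127 (SE, n = 4 and 4). The paper reports silencing of the APE1 protein by Western blot, and these counts do not measure protein. Whether the reads came from the gene's mRNA or from the transfected RNA was not tested. Every direction below is therefore that of the libraries labelled siAPEX1 against those labelled siCTRL. Reads of nuclear protein-coding genes other than APEX1 made up 15.4% ± 0.296 (SD, n = 4) of the siCTRL counts and 12.2% ± 0.323 (SD, n = 4) of the siAPEX1 counts, without overlap. Of 8 markers of the A549 line 7 were abundant enough to be tested, with EPCAM below that level at 9 reads or fewer in any library, and their summed level was 1083 to 1220 CPM (reads scaled to a library of 1000000 reads) in siCTRL and 931 to 1001 CPM in siAPEX1. None of 8 markers of fibroblasts, leukocytes and endothelial cells was abundant enough to be tested, CD3E, PECAM1 and CDH5 were at 0 counts in all libraries, and their sum reached at most 8.3 CPM in siCTRL and 4.87 CPM in siAPEX1. In bulk RNA, fewer cells with a transcript and less of it per cell cannot be told apart.

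The promoters of the members are shown first, because paired GAA units, which HSF1 binds, are a known feature of heat shock genes. RefSeq windows (GRCh38.p14) from 250 bases before to 50 bases after a start site were at hand for 16 start sites of all 10 members and for 35116 start sites in all. A pair of units was searched for as GAANNTTC or TTCNNGAA, and a triplet as GAANNTTCNNGAA or TTCNNGAANNTTC, on both strands, so that a triplet also counts as overlapping pairs. A pair was present in a window of 8 of the 10 members, 6 of the 7 cytosolic and 2 of the 3 mitochondrial ones, against 13.5% of all windows, and a triplet in 4 members, namely HSPA8, HSP90AA1, HSP90AB1 and HSPD1, against 0.49% of all windows. Members with several start sites had more than 1 chance to hold a pair, and such a match is a run of letters, not a measured binding site. The stretches below hold every pair that lay wholly before a start site, written 5′ to 3′ along the gene with the paired units in capitals and with positions counted back from the start. The stretches of HSPA8 and HSPD1 lie in exons of alternative transcripts of the same gene, and the others lie outside annotated exons.

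HSPA8, first base at -238, chr11:123062345-123062374, minus strand: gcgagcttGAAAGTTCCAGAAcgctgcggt
HSPA8, first base at -63, chr11:123062170-123062199, minus strand: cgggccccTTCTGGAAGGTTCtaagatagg
HSPA1A, first base at -117, chr6:31815426-31815455, plus strand: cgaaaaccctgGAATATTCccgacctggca
DNAJB1, first base at -88, chr19:14518456-14518485, minus strand: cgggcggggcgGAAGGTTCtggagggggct
DNAJB1, first base at -58, chr19:14518426-14518455, minus strand: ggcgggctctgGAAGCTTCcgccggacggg
HSP90AA1, first base at -89, chr14:102087104-102087133, minus strand: cTTCCGGAAGGTTCgggaggcTTCTGGAAa
HSP90AB1, first base at -173, chr6:44247770-44247799, plus strand: ggagcaggTTCTGGAAGATTCatgggctcc
HSP90AB1, first base at -120, chr6:44247823-44247852, plus strand: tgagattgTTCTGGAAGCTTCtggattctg
HSPB1, first base at -193, chr7:76302480-76302509, plus strand: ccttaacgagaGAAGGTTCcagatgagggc
HSPD1, first base at -250, chr2:197500061-197500090, minus strand: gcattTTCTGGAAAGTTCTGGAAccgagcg

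In HSPA8, HSP90AA1, HSP90AB1 and HSPD1 the units followed each other as triplets or longer runs, whereas HSPA1A, DNAJB1 and HSPB1 held isolated pairs. In HSPA9 and at a further start site of DNAJB1 the pair spanned or followed the start, and neither HSPH1 nor HSPE1 had a pair in its window. The stretch of HSPD1 lies between the start it precedes and that of HSPE1, which runs the opposite way. It falls outside the HSPE1 window. The bases before 1 start site each of HSP90AA1 and HSP90AB1, the inducible and the constitutive HSP90 gene of the cytosol, are given at greater length. These closely related genes differed in their counts, as described further on. The HSP90AA1 sequence covers the 250 bases before start 2 in the plot of heat shock units, and that of HSP90AB1 the 173 bases from -250 before start 3 up to the nearest annotated exon.

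HSP90AA1, chr14:102087045-102087294, minus strand: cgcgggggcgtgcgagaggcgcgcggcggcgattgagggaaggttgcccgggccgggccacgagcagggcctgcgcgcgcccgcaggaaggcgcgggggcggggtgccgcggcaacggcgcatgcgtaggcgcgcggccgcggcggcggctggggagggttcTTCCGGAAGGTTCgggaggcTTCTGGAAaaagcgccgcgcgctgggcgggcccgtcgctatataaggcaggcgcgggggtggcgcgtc
HSP90AB1, chr6:44247693-44247865, plus strand: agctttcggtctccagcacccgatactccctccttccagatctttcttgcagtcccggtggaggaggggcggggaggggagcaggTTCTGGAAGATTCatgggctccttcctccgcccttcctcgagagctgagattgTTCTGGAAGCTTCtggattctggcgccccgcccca

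**Figure D1:**
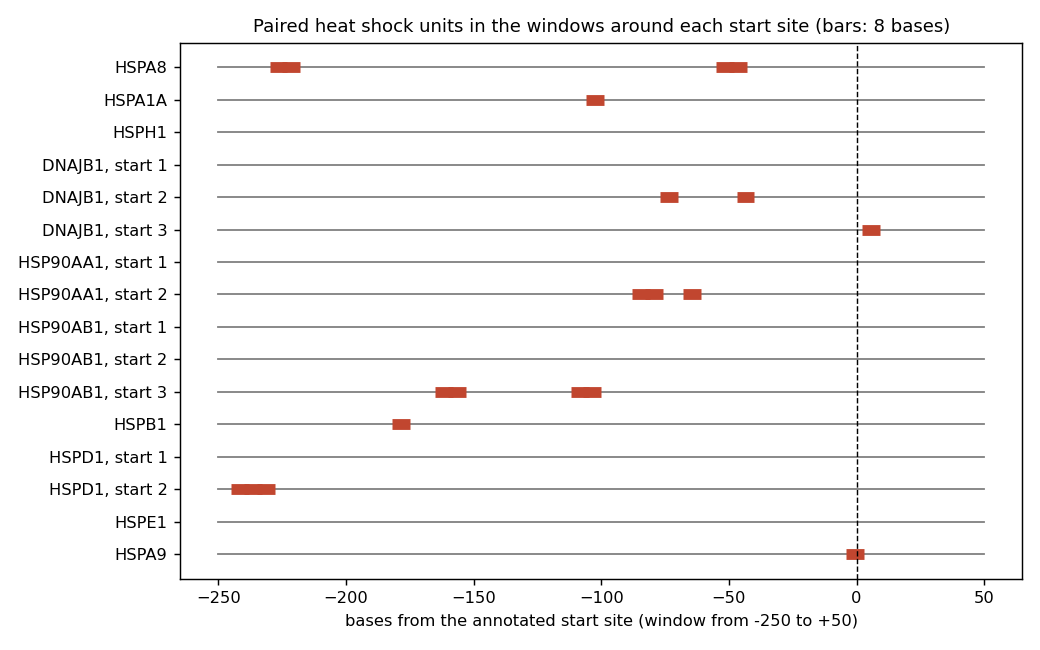
Positions of paired heat shock units in the 16 RefSeq windows of the 10 members. The x axis gives bases from the annotated start site, each line is 1 window from 250 bases before to 50 bases after the start, and each bar is 1 pair of 8 bases; bars lie before the start in HSPA8, HSPA1A, DNAJB1, HSP90AA1, HSP90AB1, HSPB1 and HSPD1, at it in HSPA9, and none is drawn for HSPH1 and HSPE1.

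The comparison asked whether the heat shock genes of the cytosol and of mitochondria differed in the libraries labelled siAPEX1. HSP90AA1 was higher by 1.49-fold, the other members had smaller fold changes, and HSPA8 alone had a negative value with TMM scaling. In edgeR's quasi-likelihood test, with p adjusted by the Benjamini-Hochberg method across the 5368 genes, HSP90AA1, HSPD1 and HSPB1 were higher at an adjusted p of at most 0.05, that is 3 of 10 members where 15.9% of all genes tested were called higher, and 0 of 10 members were lower where 15.8% of all genes were. At an unadjusted p under 0.05 no member was lower either. None passed an absolute log2 fold change of 1 as well, which 9.28% of all genes did, and DESeq2 called none at that size either. The median log2 fold change was 0.22 over the 10 members and 0.00 over all genes tested, and the members' values ran from -0.15 to 0.58. Of the 3 calls only that of HSP90AA1 held with DESeq2. When libraries were scaled by their total count alone, which lowered the whole set of genes by a median of -0.34, 2 members were called lower by edgeR, HSPA8 (-0.49, adjusted p = 0.00262) and HSP90AB1 (-0.28, adjusted p = 0.0124). With that scaling HSP90AA1 and HSPE1 kept a positive sign and HSPA8 its negative one, and the other 7 turned negative.

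**Figure D2:**
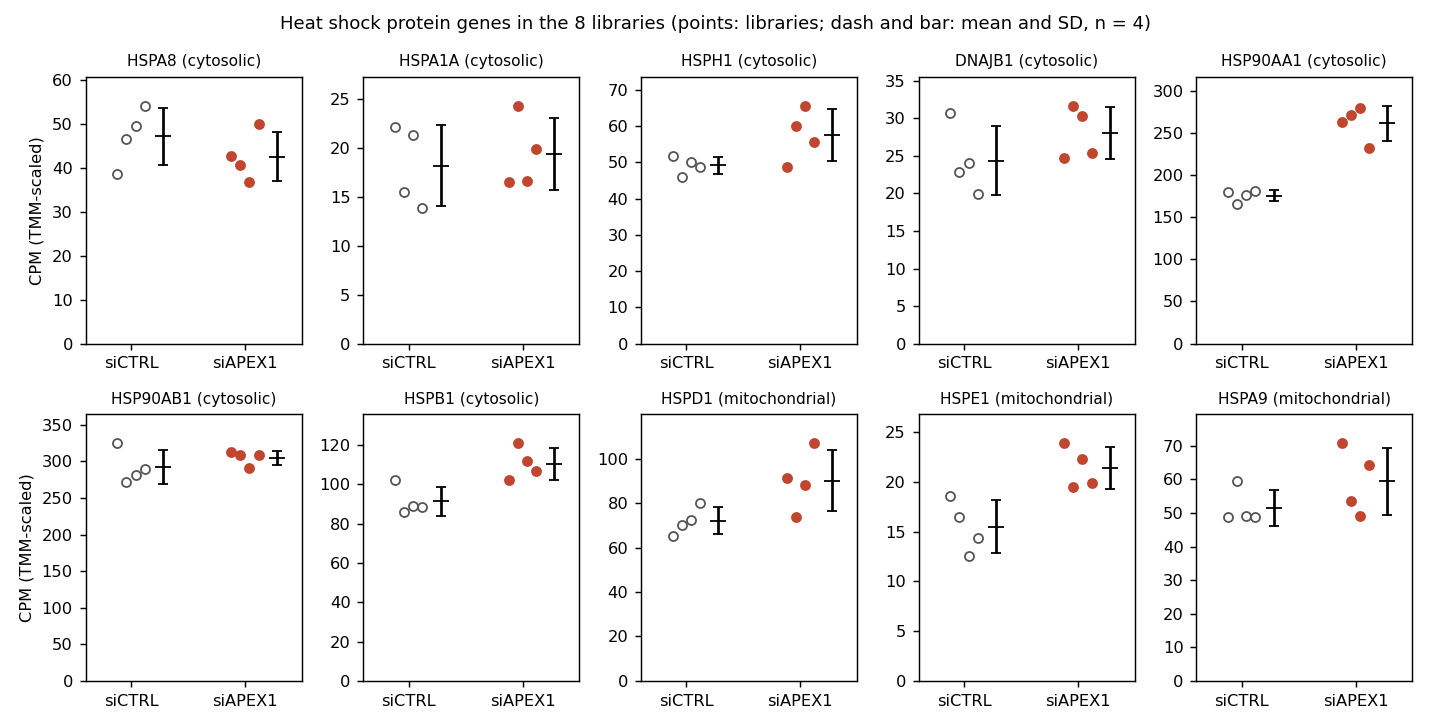
Normalised expression of the 10 genes in the 8 libraries. The y axis of each panel starts at 0 and gives CPM after TMM scaling, open points are siCTRL and filled points siAPEX1 libraries, and the dash and bar give mean and SD (n = 4); the groups are apart for HSP90AA1, for HSPE1 and, by a narrow margin, for HSPB1.

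HSPA8 (ENSG00000109971, chr11:123057489-123063230, minus strand, 9 exons in its canonical transcript), the constitutive HSP70 of the cytosol, was counted 77, 96, 107 and 98 times in siCTRL replicates 1 to 4 and 52, 50, 51 and 63 times in siAPEX1 replicates 1 to 4. TMM scaling adjusts the total of each library so that the bulk of genes is level between libraries. After it, these were 38.7, 46.5, 49.6 and 54.2 CPM against 42.8, 40.6, 36.8 and 50 CPM. The raw counts were apart, while the scaled values overlapped. The mean was 47.3 ± 6.52 CPM in siCTRL and 42.6 ± 5.58 CPM in siAPEX1 (SD, n = 4 each), a log2 fold change of -0.15 ± 0.134 (SE) with an adjusted p of 0.423 by edgeR. With total counts alone as the scale it was -0.49 ± 0.136 (SE, adjusted p = 0.00262, edgeR), below the shift of -0.34 of all genes.

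HSPA1A (ENSG00000204389, chr6:31815543-31817946, plus strand, 1 exon), the HSP70 gene that heat shock induces, was scarce, with 25 to 46 reads in the siCTRL and 20 to 30 in the siAPEX1 libraries. Its scaled values were 22.1, 15.5, 21.3 and 13.8 CPM in siCTRL and 16.5, 24.3, 16.6 and 19.9 CPM in siAPEX1. Each group spanned most of the range of the other, and the log2 fold change was 0.07 ± 0.197 (SE, adjusted p = 0.823, edgeR). Of the 50-base windows of its transcript 75.1% occurred letter for letter in HSPA1B, its neighbouring copy. A read from such a window fits both genes equally well, so neither count can be taken as the full level of its gene. HSPA1B had 14 to 22 reads in siCTRL and 11 to 22 in siAPEX1 and a log2 fold change of 0.61 ± 0.245 (SE, adjusted p = 0.0518, edgeR). With the counts of both copies summed, an alternative chosen after the counts were seen, the log2 fold change was 0.28 ± 0.155 (SE, adjusted p = 0.176, edgeR).

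DNAJB1 (ENSG00000132002, chr19:14514769-14560391, minus strand, 3 exons), a J-domain partner that hands clients to cytosolic HSP70, stood at 30.7, 22.8, 24.1 and 19.9 CPM in siCTRL and at 24.7, 31.7, 30.3 and 25.4 CPM in siAPEX1, from 30 to 61 reads a library. One control library was nearly as high as the highest siAPEX1 library, and the log2 fold change of 0.20 ± 0.166 (SE) did not pass the edgeR test (adjusted p = 0.388). HSPH1 (ENSG00000120694, chr13:31134973-31162388, minus strand, 18 exons), the HSP110 that exchanges nucleotide on HSP70, stood at 51.8, 46.0, 50 and 48.7 CPM in siCTRL and at 48.6, 60.1, 65.6 and 55.6 CPM in siAPEX1. Replicate 1 of siAPEX1 lay within the control range and the other siAPEX1 libraries above it. The means of HSPH1 were 49.1 ± 2.44 and 57.5 ± 7.19 CPM (SD, n = 4 each), with a log2 fold change of 0.23 ± 0.121 (SE, adjusted p = 0.149, edgeR). Thus none of the 4 members of the HSP70 system of the cytosol passed the test.

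HSP90AA1 (ENSG00000080824, chr14:102080742-102139699, minus strand, 11 exons), the stress-inducible HSP90 of the cytosol, was counted 357, 343, 380 and 327 times in siCTRL and 319, 335, 388 and 292 times in siAPEX1. Those counts corresponded to 180, 166, 176 and 181 CPM in siCTRL and 263, 272, 280 and 232 CPM in siAPEX1. The raw counts overlapped, yet after scaling every siAPEX1 library was above every control. The mean was higher by 1.49-fold, from 176 ± 6.69 to 262 ± 20.9 CPM (SD, n = 4 each), with a log2 fold change of 0.58 ± 0.0921 (SE, adjusted p = 3.29e-06, edgeR). Of the 3 calls it was the one that held in each of the 17 alternatives, including scaling by total count (log2 fold change 0.23, adjusted p = 0.0437, edgeR) and DESeq2 (0.56, adjusted p = 1.68e-06).

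HSP90AB1 (ENSG00000096384, chr6:44246166-44253888, plus strand, 12 exons), the constitutive HSP90 and the member with the most reads, was counted 646, 562, 609 and 523 times in siCTRL and 380, 379, 403 and 388 times in siAPEX1. On the scaled level it stood at 325, 272, 282 and 289 CPM against 313, 308, 291 and 308 CPM. The highest library was a control, and the groups overlapped. The log2 fold change was 0.06 ± 0.0896 (SE, adjusted p = 0.652, edgeR), and it turned to -0.28 with an adjusted p of 0.0124 (edgeR) when only the total count was used for scaling.

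The ratio of HSP90AA1 to HSP90AB1 reads needs no scaling between libraries. It was 0.553, 0.61, 0.624 and 0.625 in siCTRL and 0.839, 0.884, 0.963 and 0.753 in siAPEX1, so that all siAPEX1 libraries were above all controls and still below an equal number of reads. On the log2 scale the mean ratio went from -0.73 ± 0.0842 to -0.22 ± 0.149 (SD, n = 4 each), a difference of 0.51. Of the 50-base windows, 19.1% in HSP90AA1 and 19.7% in HSP90AB1 also occurred in transcripts of other genes, mostly the pseudogenes HSP90AA2P and HSP90AB3P. Both genes carried unit triplets before the start sites shown above. These stretches lie within the annotated genes, downstream of start 1 of HSP90AA1 and of starts 1 and 2 of HSP90AB1. The windows of those other starts held no pair.

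HSPB1 (ENSG00000106211, chr7:76302673-76304295, plus strand, 3 exons), the small heat shock protein HSP27 that holds unfolded clients and guards actin filaments, was counted 203, 177, 192 and 160 times in siCTRL and 124, 149, 156 and 135 times in siAPEX1. The scaled levels were 102, 85.7, 89.0 and 88.5 CPM in siCTRL and 102, 121, 112 and 107 CPM in siAPEX1. The lowest siAPEX1 library was level with the highest control to 3 digits, and the other 3 were above all controls. The mean was higher by 1.21-fold, from 91.3 ± 7.31 to 111 ± 8.03 CPM (SD, n = 4 each), with a log2 fold change of 0.28 ± 0.103 (SE, adjusted p = 0.0347, edgeR). The call was lost with DESeq2 (adjusted p = 0.216) and without any of siCTRL replicates 2, 3 and 4 or siAPEX1 replicate 2 (adjusted p of 0.099, 0.0855, 0.0644 and 0.0798 by edgeR), and the log2 fold change was -0.07 when scaled by total count.

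**Figure D3:**
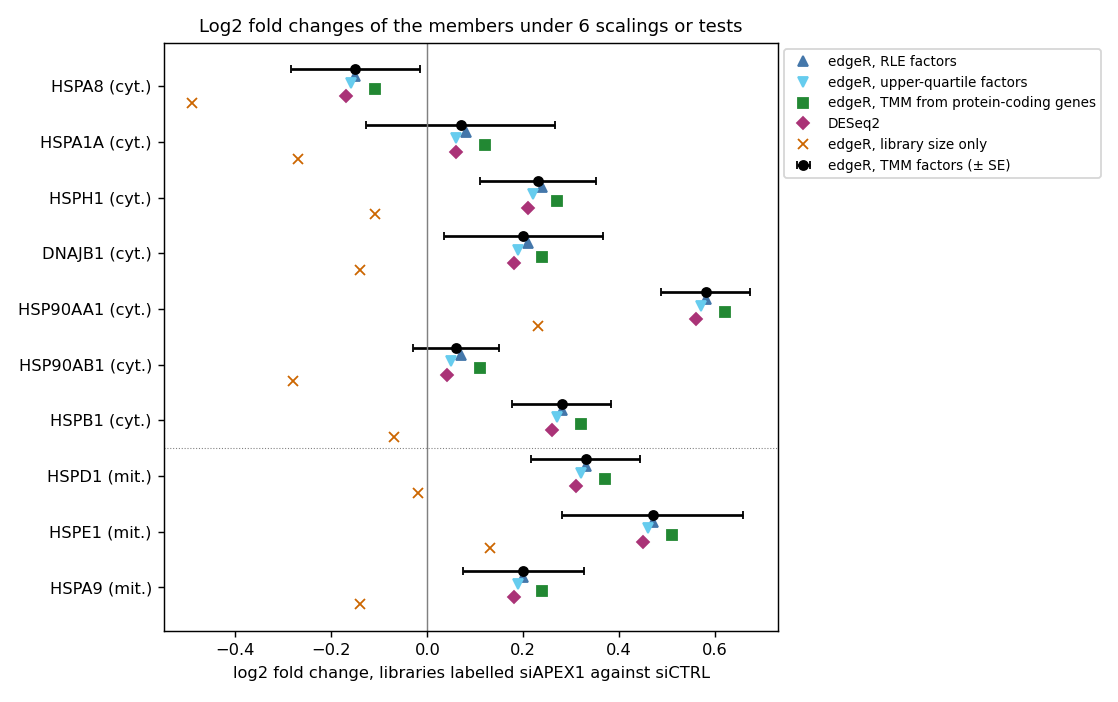
Log2 fold changes of the 10 genes, siAPEX1 against siCTRL, under 6 scalings or tests. Black points with bars give the edgeR value with TMM factors ± SE, the coloured marks give the other scalings and DESeq2, and the dotted line parts cytosolic from mitochondrial genes; scaling by total count alone shifts every gene down, from 0.58 to 0.23 for HSP90AA1 and from 0.33 to -0.02 for HSPD1.

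HSPD1 (ENSG00000144381, chr2:197486584-197516737, minus strand, 12 exons), the HSP60 whose rings form the folding chamber of the mitochondrial matrix, was counted 130, 145, 156 and 145 times in siCTRL and 111, 91, 122 and 135 times in siAPEX1. Scaled, it stood at 65.4, 70.2, 72.3 and 80.2 CPM against 91.4, 73.9, 87.9 and 107 CPM. Replicate 2 of siAPEX1 was within the control range and the other 3 were above it. The mean was higher by 1.25-fold, from 72.0 ± 6.20 to 90.1 ± 13.7 CPM (SD, n = 4 each), with a log2 fold change of 0.33 ± 0.114 (SE, adjusted p = 0.0249, edgeR). The call was lost with DESeq2 (adjusted p = 0.196) and without any of siCTRL replicates 1, 2 and 3 or siAPEX1 replicate 4 (adjusted p of 0.0717, 0.053, 0.0537 and 0.12 by edgeR), and 27.1% of the transcript's 50-base windows recur in other genes, mainly the pseudogene HSPD1P1.

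HSPE1 (ENSG00000115541, chr2:197500140-197503449, plus strand, 4 exons), the HSP10 lid of that chamber, lies head to head with HSPD1, and 135 exonic bases of the pair overlap on opposite strands. It had the fewest reads of the mitochondrial members, 37, 34, 27 and 26 in siCTRL and 29, 24, 31 and 25 in siAPEX1, or 18.6, 16.5, 12.5 and 14.4 CPM against 23.9, 19.5, 22.3 and 19.9 CPM. All siAPEX1 libraries were above all controls after scaling. The mean went from 15.5 ± 2.63 to 21.4 ± 2.09 CPM (SD, n = 4 each), and the log2 fold change of 0.47 ± 0.189 (SE) was just short of the threshold (adjusted p = 0.055, edgeR). It passed without siCTRL replicate 1 (adjusted p = 0.0304), without siAPEX1 replicate 2 (adjusted p = 0.0475) and with factors from protein-coding genes (adjusted p = 0.0345, all edgeR), but not when any other single library was left out (adjusted p of 0.0546 to 0.167, edgeR), with DESeq2 (adjusted p = 0.346) or with total-count scaling (log2 fold change 0.13, adjusted p = 0.626, edgeR). Some 48.2% of its 50-base windows recur in other genes, foremost the readthrough gene HSPE1-MOB4, which overlaps it on the same strand and was counted 0 times in every library. Scaled levels did not overlap between groups for HSP90AA1, HSPB1 and HSPE1, that is for 3 of 10 members on the higher side and 0 on the lower, where 14.0% of all genes were apart on the higher and 14.9% on the lower side.

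HSPA9 (ENSG00000113013, chr5:138553756-138575675, minus strand, 17 exons), the HSP70 of the matrix also known as mortalin, stood at 48.8, 59.6, 49.1 and 48.7 CPM in siCTRL and 70.8, 53.6, 49.0 and 64.3 CPM in siAPEX1, from 66 to 123 reads a library. Replicates 1 and 4 of siAPEX1 were above all controls and the other siAPEX1 libraries were among them. The log2 fold change was 0.20 ± 0.126 (SE, adjusted p = 0.245, edgeR). All 3 mitochondrial members thus had a positive value with TMM scaling, and 1 of them passed the test.

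The proportion of the chamber to its lid rests on few HSPE1 reads. HSPD1 had 3.51, 4.26, 5.78 and 5.58 reads for each HSPE1 read in siCTRL and 3.83, 3.79, 3.94 and 5.4 in siAPEX1, and these overlapped (difference of the log2 means -0.16). The 3 mitochondrial members together had 0.177, 0.223, 0.193 and 0.206 reads for each read of the 7 cytosolic members in siCTRL and 0.23, 0.171, 0.192 and 0.24 in siAPEX1. On the log2 scale this was -2.33 ± 0.142 against -2.28 ± 0.227 (SD, n = 4 each), a difference of 0.05, so the balance of the mitochondrial and cytosolic genes differed by less than the spread between replicates. The difference was -0.09 without HSPD1 and HSP90AB1, the members with the most reads, and -0.02 to 0.14 without single libraries. The medians of the compartments were 0.33 over the 3 mitochondrial genes, from 0.20 to 0.47, and 0.20 over the 7 cytosolic genes, from -0.15 to 0.58.

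Some proportions to HSPA8 were apart between the groups. Reads of HSPA9 for each HSPA8 read, the matrix against the cytosolic HSP70, numbered 1.26, 1.28, 0.991 and 0.898 in siCTRL and 1.65, 1.32, 1.33 and 1.29 in siAPEX1. The siAPEX1 libraries were all higher, though the nearest libraries of the groups almost met (difference of the log2 means 0.35). HSPD1 reads for each HSPA8 read numbered 1.69, 1.51, 1.46 and 1.48 against 2.13, 1.82, 2.39 and 2.14, again with all siAPEX1 libraries higher (difference of the log2 means 0.46). For HSP90AA1 against HSPA8 the difference of the log2 means was 0.72, with 1 siAPEX1 library, replicate 4 at 4.63, just under the highest control at 4.64. These ratios share HSPA8 as their denominator and are not independent of each other. HSPA8 was also the only member with a negative value under TMM scaling, which widens each of these ratios. How often ratios of other genes were apart was not tested.

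**Figure D4:**
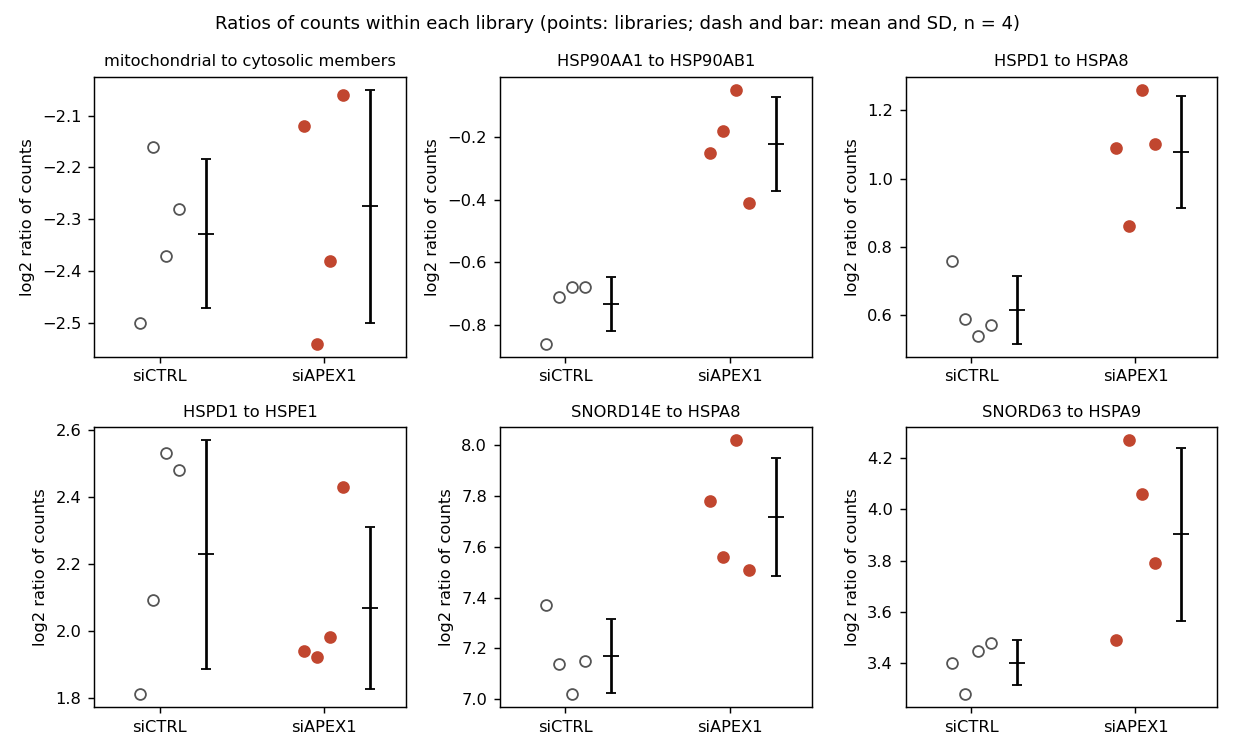
Ratios of counts within each library, on the log2 scale. Open points are siCTRL and filled points siAPEX1 libraries, the dash and bar give mean and SD (n = 4), and the y axes differ between panels and do not start at 0; the mitochondrial to cytosolic ratio and HSPD1 to HSPE1 overlap between the groups, while HSP90AA1 to HSP90AB1, HSPD1 to HSPA8 and both ratios of a small nucleolar RNA to its host are higher in siAPEX1.

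Levels of different genes can be compared only per length, so CPM were divided by the length of the canonical transcript in kilobases. In siCTRL, HSPB1 (118 CPM per kb) and HSP90AB1 (114) led, followed by HSP90AA1 (54.4), HSPD1 (32.1), HSPE1 (27.8), HSPA8 (20.9), HSPA9 (11.7), DNAJB1 (10.9), HSPH1 (9.37) and HSPA1A (7.58). In siAPEX1 the levels were 142 for HSPB1, 119 for HSP90AB1, 81.0 for HSP90AA1, 40.1 for HSPD1, 38.4 for HSPE1 and 18.8 for HSPA8, and then 13.5 for HSPA9, 12.5 for DNAJB1, 11 for HSPH1 and 8.05 for HSPA1A. The order was thus the same in both groups. Neighbours in this order that differed by less than the larger of their SDs were HSPB1 and HSP90AB1 in siCTRL, and in both groups HSPD1 and HSPE1, HSPA9 and DNAJB1, and DNAJB1 and HSPH1. In a small RNA library, fragments of mRNAs are sampled unevenly along a transcript, and these lengths correct for size only. They do not account for 50-base windows shared with other genes, 75.1% of those of HSPA1A and 48.2% of those of HSPE1.

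Summed over the 10 genes, 1516 to 1783 reads fell on heat shock genes in a siCTRL library and 1210 to 1375 in a siAPEX1 library. As a share of all counted reads this was 0.092% ± 0.00476 in siCTRL and 0.0867% ± 0.00214 in siAPEX1 (SD, n = 4 each), with overlap. As a share of nuclear protein-coding reads without APEX1 it was 0.624%, 0.575%, 0.591% and 0.598% in siCTRL and 0.706%, 0.715%, 0.703% and 0.712% in siAPEX1, without overlap. So the sum was higher relative to other mRNAs and not to the library as a whole, in which the protein-coding share itself was lower. Of those protein-coding reads, the cytosolic members held 0.47% to 0.53% in siCTRL and 0.574% to 0.611% in siAPEX1, apart, and the mitochondrial members 0.0938% to 0.105% and 0.105% to 0.138%, with overlap. HSP90AB1, HSP90AA1 and HSPB1 supplied most of these reads. The sums weight each member by its reads, so a higher sum need not be shared by all members. Of these genes HSP90AA1 had the largest log2 fold change, 0.58, beside 0.28 for HSPB1 and 0.06 for HSP90AB1.

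A pair of members host small nucleolar RNAs, which lie inside the gene on the same strand and belong to the class that guides the methylation of other RNAs. Reads of SNORD14E and SNORD63 far outnumbered those of their hosts. They are shown with the C box, where its consensus was found, and the D box in capitals, the short motifs that bind the proteins of the particle (GENCODE 44 transcripts, GRCh38).

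SNORD14E (in HSPA8), chr11:123058077-123058161, minus strand: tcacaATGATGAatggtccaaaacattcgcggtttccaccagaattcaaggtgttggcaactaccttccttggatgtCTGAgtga
SNORD63 (in HSPA9), chr5:138561043-138561110, minus strand: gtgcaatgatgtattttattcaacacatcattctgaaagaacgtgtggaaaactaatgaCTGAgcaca

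SNORD14E was counted 12694, 13560, 13898 and 13883 times in siCTRL and 11450, 9467, 13240 and 11448 times in siAPEX1, or 130 to 165 times for each read of its host HSPA8 in siCTRL and 182 to 260 times in siAPEX1. The snoRNA was higher, its log2 fold change being 0.40 ± 0.0857 (SE, adjusted p = 2.82e-04, edgeR), while the value of its host was -0.15. Its ratio to the host was higher in every siAPEX1 library than in any control (difference of the log2 means 0.55). SNORD63, in HSPA9, was counted 1027, 1194, 1162 and 983 times in siCTRL and 963, 1276, 1135 and 1122 times in siAPEX1, with a log2 fold change of 0.70 ± 0.0907 (SE, adjusted p = 4.77e-08, edgeR), and the second snoRNA of that gene, SNORD63B, had one of 0.65 ± 0.130 (SE, adjusted p = 1.01e-04, edgeR). For SNORD63 the ratio to HSPA9 was also higher in all siAPEX1 libraries, by 0.50 on the log2 scale, with replicate 1 nearly level with the highest control, whereas that of SNORD63B overlapped. Of all genes tested 15.9% were called higher, and of the nuclear protein-coding genes, to which the hosts belong, 12.4%. The share of protein-coding reads was itself lower in siAPEX1, at 12.2% against 15.4% in siCTRL. Whether these snoRNAs differed from other non-coding RNAs was not tested. SNORD14C and SNORD14D, also in HSPA8, had 0 counts in every library; their bases lie within annotated exons of HSPA8 in GENCODE 44, and the counting leaves out reads that fall on more than 1 gene. SNORD63 and SNORD63B lie within annotated exons of HSPA9 in the same way and were counted, and the annotation release behind the counts is not given in the sources used here. Whether reads of the snoRNAs entered the host counts was not tested.

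The rest of the chaperone network was taken as lists by compartment. Among 39 further chaperones and cochaperones of the cytosol 20 were abundant enough to be tested, 0 were higher and 2, or 10%, were lower, where 15.9% of all genes tested were called higher and 15.8% lower, and the median log2 fold change was -0.07. The lower ones were PTGES3, the HSP90 cochaperone p23, at 33.4 ± 2.49 CPM in siCTRL and 22.6 ± 1.92 CPM in siAPEX1 (SD, n = 4 each; log2 fold change -0.56 ± 0.155 SE, adjusted p = 0.00451, edgeR), and DNAJA2, a J-domain partner of HSPA8, at -0.64 ± 0.200 (SE, adjusted p = 0.0117, edgeR). DESeq2 called neither. Beside the 0 genes called higher, HSPA1B and FKBP4, an HSP90 cochaperone named here after its values were seen, had a positive value that passed only before adjustment for multiple tests, with an adjusted p of 0.0518 and 0.0612 by edgeR. The same held for negative values of the cochaperones HSPBP1 (-0.64, adjusted p = 0.0688, edgeR) and AHSA1 (-0.44, adjusted p = 0.101, edgeR), also named after their values were seen.

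HSF1, the transcription factor of the heat shock response, stood at 16.6, 15, 14.8 and 13.8 CPM in siCTRL and 16.5, 16.2, 15.9 and 13.5 CPM in siAPEX1. These overlapped, with a log2 fold change of 0.04 ± 0.200 (SE, adjusted p = 0.91, edgeR). Its protein is controlled largely by binding and modification, which counts of its RNA do not measure. Of the heat shock factor list 2 of 4 genes were tested, and HSF1 and HSBP1, which binds the factor, both missed the threshold.

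Among 17 further chaperones and proteases of mitochondria 7 were tested, with 1 higher, 1 lower and a median log2 fold change of -0.03. Each call is 14.3% of the genes tested, beside the 15.9% and 15.8% of all genes. With only 7 genes tested, such a share cannot show whether the list differs from other genes. LONP1, the protease that degrades damaged matrix proteins, had 12 to 27 reads in siCTRL and 5 to 7 in siAPEX1, and was lower, at a log2 fold change of -1.02 ± 0.329 (SE, adjusted p = 0.015, edgeR). LONP1 passed the filter on low counts only through siCTRL, the group where it was higher. For such a gene the filter itself favours a call in the lower direction. SPG7, a subunit of an inner membrane protease, had 15 to 18 reads in siCTRL and 13 to 20 in siAPEX1 and was higher at 0.65 ± 0.245 (SE, adjusted p = 0.0379, edgeR). Neither was called by DESeq2, and leaving out single libraries moved the number of lower genes between 0 and 2 and that of higher ones between 0 and 1. TRAP1, the HSP90 of the matrix, stood at 17.7 ± 1.58 CPM in siCTRL and 13.3 ± 3.60 CPM in siAPEX1 (SD, n = 4 each) and did not pass (log2 fold change -0.43 ± 0.211 SE, adjusted p = 0.122, edgeR).

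**Figure D5:**
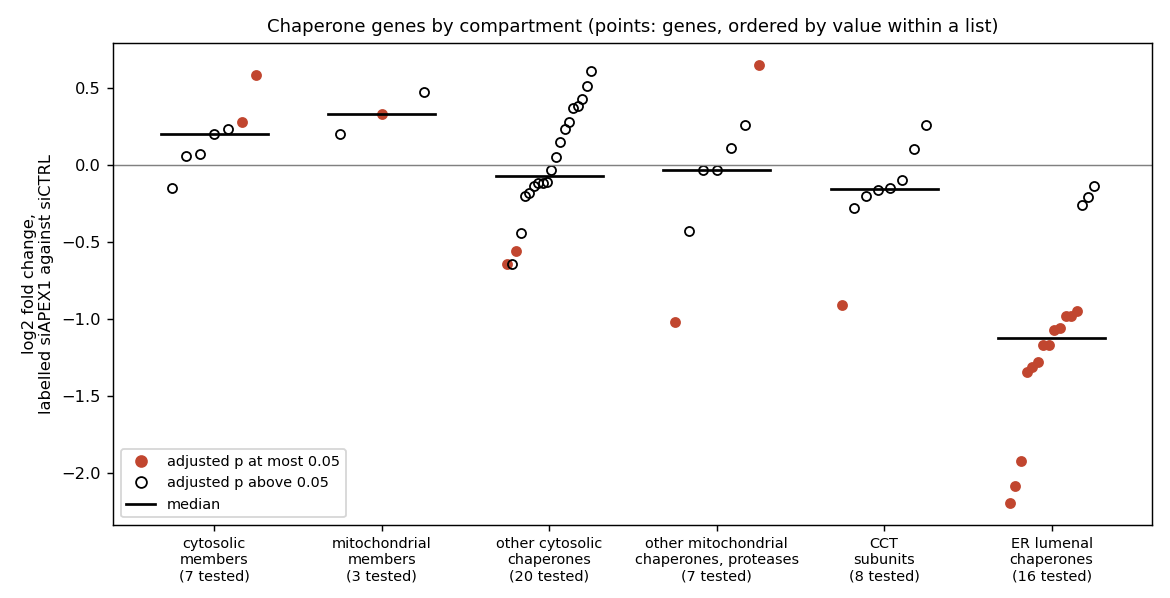
Log2 fold changes of chaperone genes by compartment, siAPEX1 against siCTRL. Each point is 1 gene, filled where the adjusted p is at most 0.05 (edgeR), the bars are medians, and the genes of a list are ordered by value along the x axis; medians are 0.20 for the cytosolic and 0.33 for the mitochondrial members, -0.07 and -0.03 for the wider lists, -0.15 for CCT subunits and -1.12 for chaperones of the endoplasmic reticulum.

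The chaperones of the endoplasmic reticulum, which fold secreted and membrane proteins, were a further set for comparison. Of 16 genes, all tested, 0 were higher in edgeR, also at an unadjusted p under 0.05. A further 13, or 81.2%, were lower, 10 of them past an absolute log2 fold change of 1 as well, and the median of the list was -1.12. Of all genes tested 15.9% were higher, 15.8% lower and 9.28% past both thresholds in either direction. HSPA5, the HSP70 of that compartment, fell from 309 ± 35.2 to 148 ± 28.5 CPM (SD, n = 4 each; log2 fold change -1.07, adjusted p = 2.09e-10, edgeR). HSPA8 had 0.15, 0.147, 0.154 and 0.16 reads for each HSPA5 read in siCTRL and 0.257, 0.284, 0.336 and 0.29 in siAPEX1. That ratio of the cytosolic to the reticular HSP70 was higher in every siAPEX1 library, by 0.93 between the log2 means. HSP90B1, the HSP90 of the reticulum, was lower at -1.17 (adjusted p = 6.39e-14, edgeR), beside 0.58 for HSP90AA1 and 0.06 for HSP90AB1. For the 8 subunits of CCT, the cytosolic chaperonin that folds actin and tubulin, the median was -0.15, and CCT7 was lower at -0.91 (adjusted p = 1.67e-05, edgeR). CCT7 was the only subunit called, 12.5% of the list beside 15.8% of all genes tested.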

How the data were processed

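Total RNA of A549 cells was sequenced in 8 libraries, 4 siCTRL and 4 siAPEX1, grouped by their titles. The libraries were prepared with a small RNA kit based on tailing and template switching, and the authors trimmed the reads, aligned them with STAR 2.5.3a to GRCh38 and deposited whole-number counts per Ensembl gene from STAR's gene counting; the Ensembl release and the strand setting are not given in the sources used here. Of 58302 genes 57532 matched GENCODE 44, which gave symbols, positions and exons.

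Counts were tested with edgeR 4.0.16 (R 4.3.3; TMM factors, filterByExpr at 10 counts per library and 15 in all, quasi-likelihood test, Benjamini-Hochberg adjustment over 5368 genes, common biological coefficient of variation 0.0832). A gene was called at an adjusted p of at most 0.05, and a second, stricter call also required an absolute log2 fold change of 1. SEs were derived from the F statistic, and CPM from the TMM-scaled library size. DESeq2 1.42.0, other factors, filters, a replicate block, leaving out each library and the sum of HSPA1A and HSPA1B were alternatives. The programs were checked on simulated counts. Named beside the members were the largest changes past the threshold in each list, HSF1, HSPA1B, HSPA5, TRAP1, hosted snoRNAs and same-strand neighbours. Ratios, shares and 50-base windows of canonical transcripts were computed per library or gene without a test. The members and lists were chosen with earlier results of these data known. Counting error is largest for the members under 50 reads a library (HSPA1A, HSPE1).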

Additional observations from a re-analysis of the deposited data

Results flagged for a closer look

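In 40 groups of 4 values, the scaled levels of the members and the ratios between genes in each condition, 3 had a library farther from the others than Dixon's 95% limit, and chance alone marks about 1 group in 20. HSPA9 in siCTRL had a gap of 0.961 of the group's range, with replicate 2 at 59.6 CPM and the others at 48.7 to 49.1 CPM. The log2 ratio of HSPD1 to HSPE1 in siAPEX1 had a gap of 0.895, with replicate 4 at 2.43 and the others at 1.92 to 1.98. The log2 ratio of HSPA9 to HSPA8 in siAPEX1 had a gap of 0.856, with replicate 1 at 0.73 and the others at 0.36 to 0.42.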

How the results depend on the processing

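HSP90AA1 was called higher in all 17 alternatives (0.55 to 0.65 without single libraries). The number of members called higher, 3, was 1 with scaling by total count, with DESeq2, with all genes of at least 1 count and with genes that reached 10 counts in all 8 libraries, and 1 to 3 without single libraries, 1 without siCTRL replicate 2 or siCTRL replicate 3. The number called lower, 0, was 2 with scaling by total count (HSPA8 at -0.49, HSP90AB1 at -0.28), and 0 to 0 without single libraries; none passed a log2 fold change of 1 in any alternative. Under scaling by total count, which shifted the median of all genes by -0.34, the log2 fold changes turned to -0.27 for HSPA1A, -0.11 for HSPH1, -0.14 for DNAJB1, -0.28 for HSP90AB1, -0.07 for HSPB1, -0.02 for HSPD1 and -0.14 for HSPA9. With either low-count filter, which shifted the median of the genes in common by -0.09, HSPA1A was at -0.02 and HSP90AB1 at -0.03. HSPA1A ran from -0.03 to 0.17 without single libraries, at 0.00 without siCTRL replicate 2. Of the further cytosolic chaperones, 1 was higher with RLE factors, 2 with factors from protein-coding genes and 0 to 1 without single libraries, while 6 were lower with scaling by total count and 0 with DESeq2. Of the mitochondrial list, 0 were higher with scaling by total count, DESeq2 and both low-count filters (0 to 1 without single libraries), and 2 were lower with scaling by total count, 0 with DESeq2 and 3 with all genes of at least 1 count (0 to 2 without single libraries). The log2 ratio of mitochondrial to cytosolic reads differed by -0.02 to 0.14 without single libraries, by -0.09 without the member with the most reads in each compartment, by 0.05 without HSPA1A and by 0.14 as a mean of log2 CPM over members, all within the spread between replicates. Apart from the shifts of the median with total-count scaling and with the low-count filters, the cause of these differences was not tested. DESeq2 called 455 genes higher and 447 lower, where edgeR called 856 and 847, and total-count scaling 340 and 1945.

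Samples with the same replicate number did not deviate together (correlations of -0.0373 to -0.00348), so the numbers give no pairing; with the replicate block 3 members were higher and 0 lower, no member's call changed, and 806 genes were higher and 789 lower.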
